A study of Mus musculus with 6 samples.

Results

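The genes described here encode RNA-binding proteins that steer the splicing of pre-messenger RNA: the SR proteins (gene symbols starting with Srsf), the heterogeneous nuclear ribonucleoproteins or hnRNPs (Hnrnp), the RNA-binding motif proteins (Rbm) and quaking (Qk). Members were all probe sets of the array whose platform annotation gives a single gene symbol with one of these beginnings, or Qk. Rbm3, a cold-inducible gene, was left out. The rule found 68 of the 19938 genes with such a symbol, on 87 of 28944 probe sets: 14 probe sets of Srsf genes, 23 of Hnrnp genes, 47 of Rbm genes and 3 of Qk. The symbol alone decided membership, so the Rbm members also include genes with little known role in splicing, and Rbm3os, an RNA read from the strand opposite Rbm3.

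Both groups were left ventricles of male C57BL/6 mice aged 10 weeks, with 3 arrays each. The compound group received 2-methyl-2-thiazoline (2MT), a small thiazoline molecule, at 50 mg/kg under the skin, and the hearts were excised 4 h later. The control group is labelled saline, and its samples carry the same protocol text, which names only the 2MT injection. The labels do not say that each array is a separate animal, and the p-values here rest on the scatter among the 6 samples alone, part or all of which may be technical. The study set out to find how the compound protects the heart, and the comparison shows which transcripts differ after 2MT. In bulk tissue, fewer cells of a type and less RNA per cell cannot be told apart.

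A pre-mRNA is cut and joined by the spliceosome, and these proteins decide which exons it joins. SR proteins bind exons, mostly through enhancer sequences, and recruit the spliceosome through domains rich in arginine and serine; hnRNPs often act against them by covering splice sites or looping out exons. In heart muscle, Rbm20 represses exons of titin, the spring protein of the sarcomere, Rbm24 favours muscle-specific exons, and Qk, a protein of the STAR family, shapes splicing of sarcomere genes and the formation of circular RNAs. The array values used here are 1 signal per probe set, so they report the amount of transcript and not which exons it holds.

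Values are log2 signals. A probe set was called bright, and tested, where its mean over the 6 arrays was at least 4.345, the median of all probe sets. That left 77 of the 87 members, for 61 genes, among 14480 bright probe sets. The groups were compared with limma, and "rose" and "fell" are used only where the p, adjusted by the Benjamini-Hochberg method over all bright probe sets, was under 0.05. Signals of different probe sets are not compared with each other, because each binds its transcript with its own efficiency.

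Of the 77 bright members, 2 rose, Qk and Rbm20, and 1 fell, Rbm33. That is 3.9% of the members, beside 2.90% of all bright probe sets (1.31% higher, 1.60% lower in 2MT), a share near the background. The 3 changes were of 1.27-fold, 1.30-fold and 1.27-fold. No other bright member passed, and the differences among the 77 ran from -0.34 to 0.37 on the log2 scale.

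Promoter stretches of a pair of genes are shown because Qk was the member with the smallest p, and because Rbm5 gives an example of a match to a searched motif; Rbm5 and the motifs were chosen after values were seen. Each is the 250 bases before a RefSeq transcription start, 5′ to 3′ in the direction of the gene, in lower case, with matches to the searched motifs in capitals. The Qk stretch is chr17:10319362-10319611 and the Rbm5 stretch chr9:107771003-107771252, both on the minus strand of build GRCm38.
Qk: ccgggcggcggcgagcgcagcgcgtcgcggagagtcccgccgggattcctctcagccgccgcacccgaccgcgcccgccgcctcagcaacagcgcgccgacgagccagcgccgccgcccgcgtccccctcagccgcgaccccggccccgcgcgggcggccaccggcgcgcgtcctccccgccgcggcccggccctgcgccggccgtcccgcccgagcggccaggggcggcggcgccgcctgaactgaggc
Rbm5: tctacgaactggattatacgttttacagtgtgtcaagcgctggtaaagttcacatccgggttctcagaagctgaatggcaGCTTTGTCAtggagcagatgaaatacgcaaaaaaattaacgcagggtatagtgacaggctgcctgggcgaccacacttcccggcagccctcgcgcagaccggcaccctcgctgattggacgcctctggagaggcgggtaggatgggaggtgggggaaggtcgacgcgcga
The motifs searched on both strands were TGACNNNGC, the antioxidant response element core, CACGTG, the E-box that Myc and clock factors bind, and TATAAA, the TATA box. The Qk stretch held none of these letters and was 84.8% G and C with 52 CpG pairs, against a median of 52.4% and 6 over all 32851 promoters of that table. The Rbm5 stretch was 55.6% G and C and held 1 match, to TGACNNNGC read on the opposite strand. Over the 78 promoters of 59 member genes found in the table, the median was 61.0% G and C with 19 CpG pairs. TGACNNNGC lay in 14 of these 78, for 11 genes, and in 10.2% of all promoters. Those genes had no common direction: the differences were -0.27 for Rbm5, -0.19 to -0.09 for the probe sets of Hnrnpf and -0.14 for Rbm42, 0.13 to 0.16 for those of Hnrnpk and 0.08 for Rbmx2, -0.06 to 0.05 for Srsf4, Rbm4b, Srsf2 and Rbm38, and Rbm47 and Srsf12 were dim. None of them passed. CACGTG lay in 8 promoters of members and in 6.02% of all, and TATAAA in 8 and in 12.4%. A match describes the letters in the window, not a bound site.

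Qk, the quaking gene, rose. Its brightest probe set, 10447708, read 9.26, 9.32 and 9.18 on saline 1 to 3 and 9.63, 9.55 and 9.62 on 2MT 1 to 3. All 3 arrays given 2MT lay above all 3 saline arrays. The means were 9.60 ± 0.04 against 9.25 ± 0.07 (SD, n = 3), a log2 difference of 0.35 ± 0.05 (SE, limma adjusted p = 0.0063). The call held with each array left out in turn (adjusted p from 0.0161 to 0.0349), and it was lost without the variance trend (0.0516). The gene has a pair of further probe sets, which the platform table ties to another transcript record than the first. Probe set 10447725 read 6.32, 6.02 and 6.07 in saline and 5.92, 5.99 and 6.18 in 2MT, and probe set 10447729 read 5.44, 5.36 and 5.54 in saline and 5.27, 5.34 and 5.63 in 2MT. In both the groups overlapped, with differences of -0.11 ± 0.10 and -0.03 ± 0.11 (SE, limma adjusted p = 0.66 and 0.92). Their 95% intervals, -0.33 to 0.12 and -0.28 to 0.21, do not reach the interval of the first probe set, 0.23 to 0.46, so the probe sets of Qk disagree, and the mean of all 3 gave a difference of 0.07 (adjusted p = 0.688).

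Rbm20, the repressor of titin exons, rose. Its single probe set, 10463981, read 7.60, 7.68 and 7.55 in saline and 8.09, 7.91 and 7.95 in 2MT, again with no overlap. The means were 7.98 ± 0.10 against 7.61 ± 0.07 (SD, n = 3), a difference of 0.37 ± 0.06 (SE, limma adjusted p = 0.0149), the largest of any bright member. Without saline 1 the difference was 0.37 and the adjusted p 0.0613, and without the variance trend the adjusted p was 0.0596; leaving out any other single array gave 0.0319 to 0.0489. Of 5 muscle genes known to be spliced under Rbm20, all bright, 0 passed in limma and 1, Camk2d, had an unadjusted p under 0.05. Camk2d, a calcium-dependent kinase, read 8.31 ± 0.10 in saline and 8.50 ± 0.05 in 2MT (SD, n = 3, limma adjusted p = 0.162). Its groups did not overlap, as in 21.3% of all bright probe sets. Ldb3, a Z-disc protein, differed by 0.12 ± 0.05, the calcium channel gene Cacna1c by 0.10, titin itself, Ttn, by 0.05, and the release channel gene Ryr2 by 0.01. The whole range of the 5, from 0.01 to 0.18, concerns total transcript and holds nothing on their exons.

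Rbm33, which encodes an RNA-binding protein linked to the removal of methyl marks from adenosines in RNA, fell on 1 of its probe sets. Probe set 10520371 read 7.89, 7.89 and 7.70 in saline and 7.47, 7.57 and 7.42 in 2MT, with every 2MT array below every saline array. It fell by 0.34 ± 0.07 (SE, limma adjusted p = 0.0314), from 7.83 ± 0.11 to 7.49 ± 0.08 (SD, n = 3). The second bright probe set, 10520379, read 6.23, 6.21 and 6.02 against 5.88, 5.99 and 5.83, also without overlap, and its difference was -0.25 ± 0.09 (SE, adjusted p = 0.161). A further probe set, 10520388, was dim and not tested, at 4.34 ± 0.12 in saline and 4.10 ± 0.20 in 2MT (SD, n = 3). All 3 probe sets thus had a lower mean in 2MT, and they read 1 gene, so they are not separate evidence. The call of the first rested on few arrays: the adjusted p was 0.126 without saline 1, 0.115 without saline 2, 0.0833 without 2MT 1, 0.0602 without 2MT 2 and 0.111 without 2MT 3, and it was 0.0177 without saline 3. It was 0.0529 when every probe set was tested with no dim filter and 0.091 with no variance trend, and the mean of all 3 probe sets gave 0.0607.

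**Figure D1:**
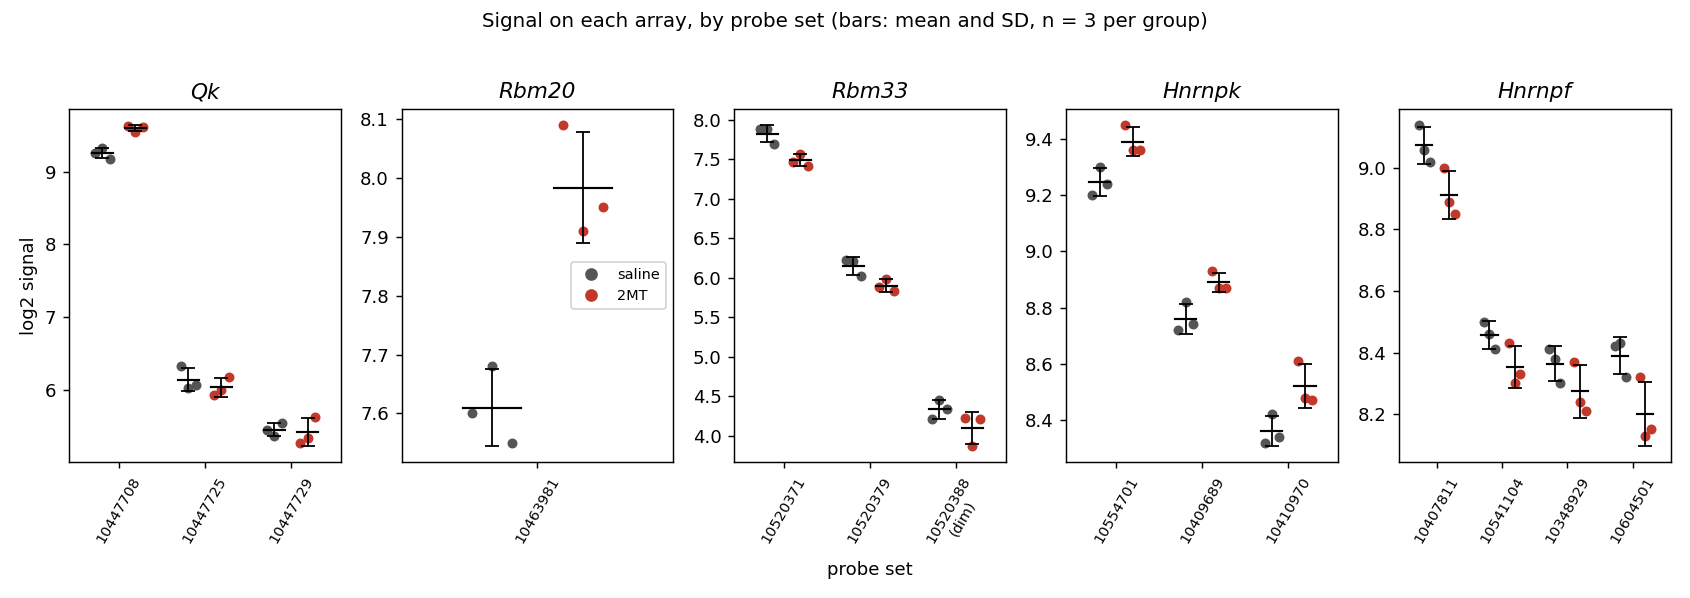
Log2 signal (vertical axis, its own scale in each panel) on each of the 3 saline and 3 2MT arrays for every probe set of Qk, Rbm20, Rbm33, Hnrnpk and Hnrnpf, with bars for mean and SD. The groups separate for the first Qk probe set (9.18 to 9.32 against 9.55 to 9.63), for Rbm20, for both bright Rbm33 probe sets and for all 3 of Hnrnpk. They also separate for 1 Hnrnpf probe set, 10407811 (9.02 to 9.14 against 8.85 to 9.0). They overlap for the other Hnrnpf probe sets, the dim Rbm33 probe set and both dimmer Qk probe sets.

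Of 11 bright probe sets of SR protein genes, 0 passed in limma and 1 had an unadjusted p under 0.05 (9.09% beside 17.2% of all bright probe sets). The means were higher in 2MT for 2 and lower for 9, with a median difference of -0.07, where the median of all bright probe sets was 0.00. The lowest was Srsf6, which encodes a classical SR protein with a pair of RNA recognition motifs: it read 6.79, 6.90 and 6.62 in saline and 6.63, 6.50 and 6.55 in 2MT, a difference of -0.21 ± 0.08 (SE, limma adjusted p = 0.232). Only 2MT 1 reached into the saline range there. Both probe sets of Srsf5 lay lower by like amounts, at -0.15 ± 0.08 and -0.15 ± 0.07, and Srsf11 at -0.14 ± 0.08 (SE), none of them past the test. Srsf1, the founding splicing activator of the family, was at 7.75 ± 0.13 in saline and 7.88 ± 0.09 in 2MT (SD, n = 3, limma adjusted p = 0.433), the highest difference of the family at 0.13. Srsf10, which represses splicing when it loses its phosphates, differed by 0.07 and Srsf2, an activator of exon inclusion, by -0.01. Both bright probe sets of Srsf3, the smallest SR protein, differed by -0.07 and -0.06. Srsf4 differed by -0.06 and Srsf9 by -0.10, the latter with saline 1 at 6.26 and the other arrays between 5.59 and 5.85.

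The Srsf signals varied among the saline arrays. The median deviation of the 11 probe sets from their 6-array means was 0.13 on saline 1, 0.04 on saline 2 and -0.09 on saline 3, against -0.03 to 0.02 on the 2MT arrays. Srsf3 shows this, with 8.38, 8.07 and 7.96 on saline 1 to 3 and 8.14, 7.97 and 8.13 on 2MT 1 to 3 for probe set 10501661. Over all 77 members the deviations were 0.03, 0.04 and -0.06 in saline and 0.00, -0.05 and 0.03 in 2MT, so saline 3 and 2MT 2 were the low arrays. Without saline 3, the members whose groups did not overlap went from 12 to 29, of which 6 lay above and 23 below. That is 37.7% of the members (29.9% below), beside 34.9% of all bright probe sets without that array (16.7% below). On saline 3 the mean signal of 4 erythrocyte markers (of 7 listed, 2 of them bright) was 5.26, against 4.48 to 4.74 on the others; its part in these values was not tested.

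Of 23 bright probe sets of hnRNP genes, all of those found, 0 passed in limma and 6 had an unadjusted p under 0.05, 26.1% beside 17.2% of all bright probe sets. These 6 were probe sets of Hnrnpk, Hnrnpf and Hnrnpll only, among 17 bright hnRNP genes. Repeated probe sets of Hnrnpk and Hnrnpf thus weigh on the 26.1%, which is not a share of genes. The median difference of the 23 was -0.01, with 9 means above and 14 below saline. In 5 the groups stood apart, 21.7% beside 21.3% of all bright probe sets, and 3 of these were Hnrnpk. Hnrnpk encodes a protein with KH domains that binds C-rich RNA and DNA. Its brightest probe set, 10554701, read 9.20, 9.30 and 9.24 in saline and 9.45, 9.36 and 9.36 in 2MT. The difference was 0.14 ± 0.05 (SE, limma adjusted p = 0.171). The other two differed by 0.16 ± 0.06 and 0.13 ± 0.05 (SE, adjusted p = 0.186 and 0.218). The 3 list the same gene and share transcript records, so they read overlapping RNA, and each of their 95% intervals lies above 0 and below 0.29.

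Hnrnpf, whose protein binds runs of G and sets the choice of exons and of poly(A) sites, lay the other way on all 4 of its probe sets, at -0.19, -0.16, -0.10 and -0.09. The lowest of these, 10604501, read 8.42, 8.43 and 8.32 in saline and 8.32, 8.13 and 8.15 in 2MT (limma adjusted p = 0.161). Its neighbour 10407811 read 9.14, 9.06 and 9.02 against 9.0, 8.89 and 8.85, with no overlap (limma adjusted p = 0.179). These 4 also share transcript records and may read near-identical copies of the gene. Hnrnpll, a regulator of exon skipping known from lymphocytes, was at 5.72 ± 0.10 in saline and 5.53 ± 0.02 in 2MT (SD, n = 3, limma adjusted p = 0.281), also without overlap. Of 5 lymphocyte markers none was bright.

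Several of the best-known hnRNP genes had differences close to 0. Hnrnpa2b1, a binder of A- and G-rich motifs, was at 8.59 ± 0.06 in saline and 8.59 ± 0.09 in 2MT. Hnrnpu, a nuclear scaffold protein, was at 8.99 ± 0.09 and 8.97 ± 0.06 (SD, n = 3). Hnrnpc, which covers long runs of U, spread widely in saline, at 7.05, 7.49 and 7.60, and the 2MT values of 7.36, 7.20 and 7.45 lay inside that range. Hnrnpl, which binds CA repeats, differed by -0.08, and Hnrnpul2 by -0.12. The remaining hnRNP probe sets, of Hnrnpa0, Hnrnpab, Hnrnpd, Hnrnpdl, Hnrnph1, Hnrnph2, Hnrnpm, Hnrnpr and Hnrnpul1, lay between -0.05 and 0.07.

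Hnrnpa1 and Hnrnpa3 are not members, because their probe sets carry several gene symbols. The 5 probe sets that name Hnrnpa1 beside near-identical copies differed by -0.09 to -0.03. In 4 of them every 2MT array lay below every saline array, as in 9.74% of all bright probe sets. All 5 carry the same symbols, so they are not separate evidence. The 9 that name Hnrnpa3 differed by -0.09 to 0.02. None of the 24 bright probe sets that name a family gene among several passed in limma (smallest adjusted p = 0.366).

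Of 40 bright probe sets of Rbm genes, Rbm20 rose and Rbm33 fell, 5.0% beside the 2.90% of all bright probe sets, and 6 had an unadjusted p under 0.05 (15.0% beside 17.2%). Among the bright Rbm genes, Rbm5, a regulator of death-receptor and caspase transcripts, had the lowest difference after Rbm33. It read 7.79, 7.47 and 7.47 in saline and 7.42, 7.31 and 7.19 in 2MT. The groups did not overlap, and the difference of -0.27 ± 0.10 (SE) did not pass (limma adjusted p = 0.18). Its relative Rbm6 differed by -0.04 and -0.09 on its probe sets, and Rbm10 by -0.02. Rbm25, a splicing regulator of apoptosis genes, differed by 0.10, 0.06, 0.06 and -0.02 on its 4 probe sets. Rbm39, which resembles the U2 auxiliary factor, was at 8.13 ± 0.10 in saline and 8.16 ± 0.06 in 2MT (SD, n = 3), and Rbm17 and Rbm22, spliceosome components, differed by -0.03 and 0.01. Rbmx, an X-linked hnRNP-like protein, differed by 0.03.

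Rbm24, which favours muscle exons, was at 8.78 ± 0.08 in saline and 8.75 ± 0.03 in 2MT (SD, n = 3, limma adjusted p = 0.826). Its difference of -0.03 had a 95% interval of -0.16 to 0.09, and that of Rbm20 ran from 0.23 to 0.52. Rbm38, its close relative and a p53 target, was at 7.59 ± 0.10 and 7.63 ± 0.14.

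Some of the other Rbm members are known mainly for roles outside exon choice. Rbm8a, a core subunit of the exon junction complex that marks spliced RNA, read 7.54, 7.42 and 7.39 in saline and 7.28, 7.29 and 7.29 in 2MT, with no overlap, and differed by -0.16 ± 0.06 (SE, limma adjusted p = 0.203). Rbm15 and Rbm15b, which guide the enzyme that methylates adenosines in RNA, differed by 0.08, and by -0.10 and -0.02 on both probe sets of the latter. Rbm7, Rbm26 and Rbm27, parts of nuclear RNA decay complexes, differed by -0.05, -0.06 and 0.04, and Rbm19 and Rbm28, nucleolar proteins of ribosome assembly, by -0.01 each. Of the Rbms genes, which bind single-stranded nucleic acids, Rbms2 was lower without overlap (7.78 ± 0.06 in saline, 7.65 ± 0.04 in 2MT, SD, n = 3, limma adjusted p = 0.264), Rbms1 differed by 0.09 and Rbms3 by -0.07. Rbm18 differed by 0.10. Rbm43 and Rbm42 differed by -0.18 and -0.14, and the remaining bright probe sets, of Rbm12b2, Rbm34, Rbm41, Rbm45, Rbm48, Rbm4b, Rbmx2 and Rbmxl2, by -0.05 to 0.09.

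**Figure D2:**
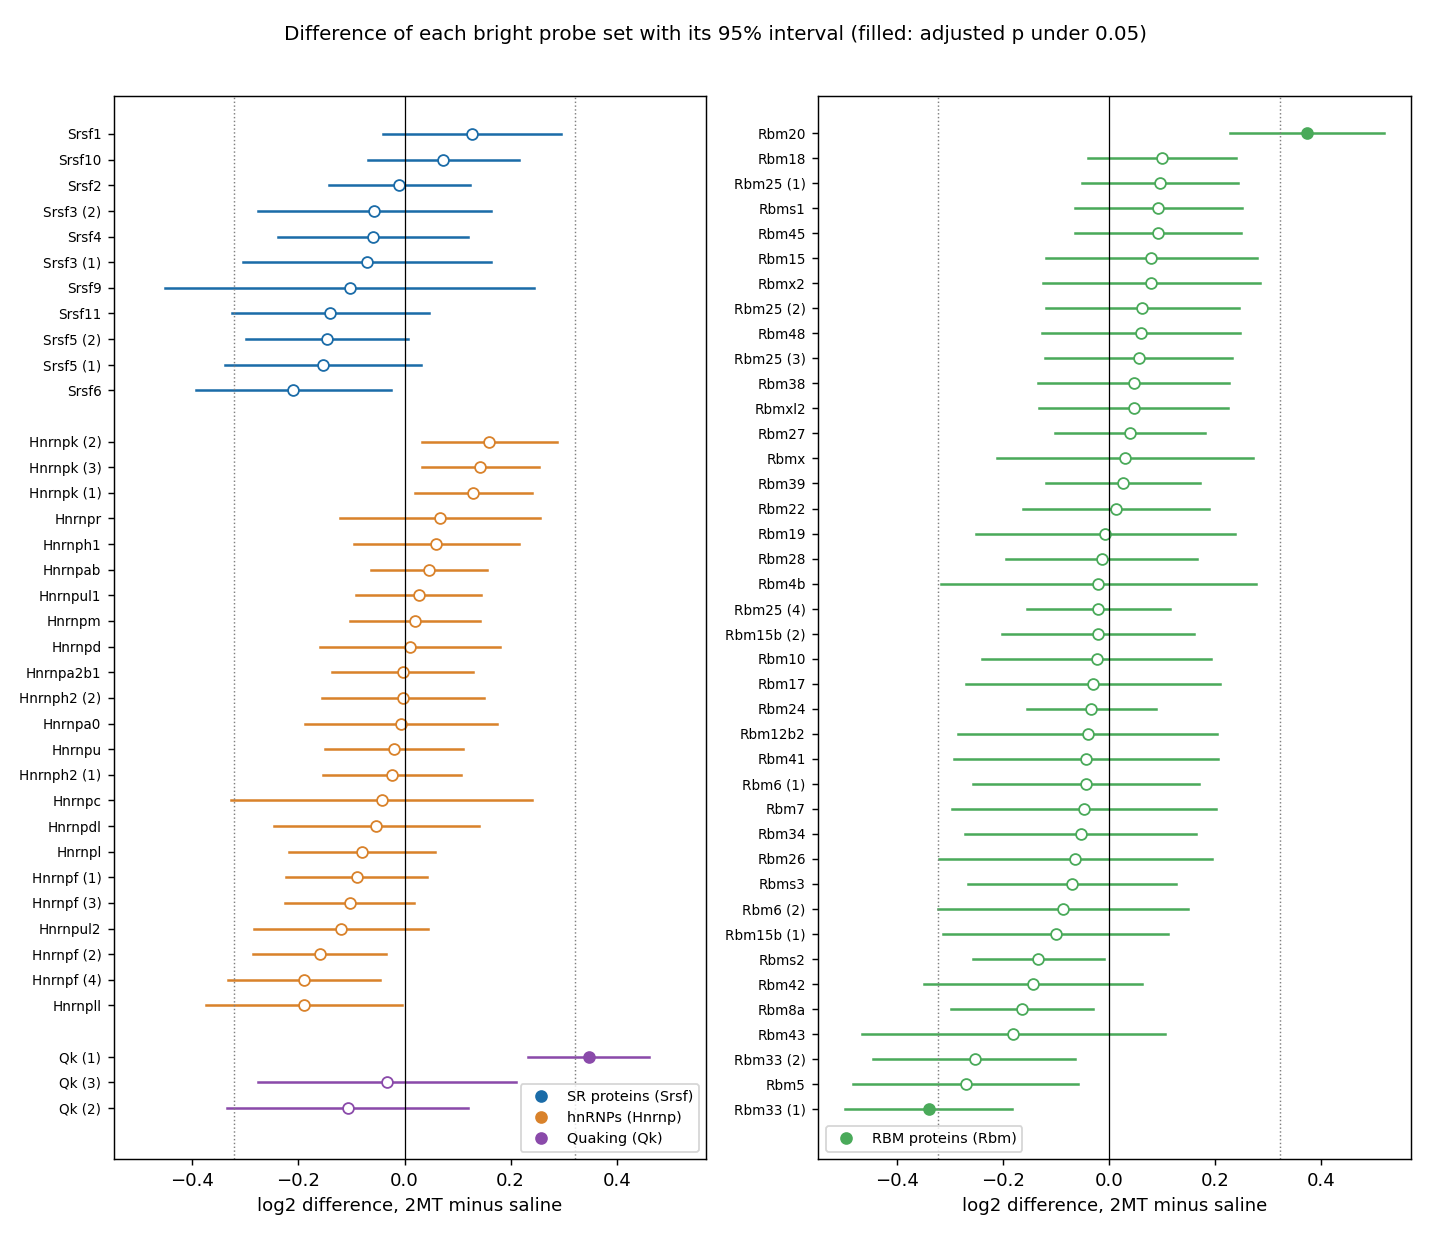
Log2 difference (2MT minus saline) of all 77 bright members with its 95% interval from limma, by family; filled points passed the adjusted p, dotted lines mark 1.25-fold in either direction, and numbers in brackets count probe sets of 1 gene. Qk (1), Rbm20 and Rbm33 (1) stand out, and the intervals of 61 of the 77 lie between the dotted lines.

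The intervals describe single probe sets, were not adjusted for the number of members, and rest on the scatter among the 6 samples. They do not bound a gene, since those of the dimmer Qk probe sets do not reach that of the first. For 61 of the 77 members (79.2%) the 95% interval lay inside a 1.25-fold change in either direction (0.32 on the log2 scale), and for all 77 inside 1.5-fold (0.58). Over all bright probe sets these shares were 59.8% and 94.1%. Only 3 of the 77 bright members reached a size of 1.25-fold, which are those called, beside 828 of all 14480 bright probe sets. The typical spread within a group was 0.10 for members and 0.10 for all bright probe sets (median of the pooled SD). On simulated data of this design the test found 10% of 1.25-fold and 82% of 1.5-fold changes (32% and 96% with variances drawn another way). Only 50 probe sets were changed at each size, and 153 were called (186 the other way), against 420 in the data. The adjusted cutoff was thus stricter in the simulation, and these shares need not hold here. Small changes of single members may still have been missed.

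Across the 77 members, 28 means lay above saline and 49 below it (63.6% below, beside 48.2% of all bright probe sets), with a median difference of -0.02 beside 0.00. Without saline 2 the median of the members was -0.00 and without saline 3 it was -0.04. The groups did not overlap in 12 (15.6%), 5 above and 7 below, beside 21.3% of all bright probe sets (11.5% above, 9.74% below). At an unadjusted p under 0.05 there were 14 (18.2%) beside 17.2%. By the counts of separated groups and of unadjusted p the members lay near or below the background.

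Among 10 dim members, Srsf3, Srsf10 and Rbm33 each have brighter probe sets, and Srsf12, Rbm11, Rbm44, Rbm46, Rbm47, Rbm8a2 and Rbm3os have none. When every probe set was tested with no filter, none of the 10 passed in limma and 1, the dim probe set of Srsf10, had an unadjusted p under 0.05 (a difference of 0.35, adjusted p = 0.391), while the bright one of that gene differed by 0.07. Rbm3os read 3.98 ± 0.34 in saline and 4.29 ± 0.14 in 2MT (SD, n = 3).

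Other genes of the splicing machinery were read from lists. Of 156 bright probe sets for 120 such genes, 1 fell and 0 rose in limma, 0.641% beside 2.90% of all bright probe sets. At an unadjusted p under 0.05 there were 16, 10.3% beside 17.2%, so both shares lay below the background. Some genes count repeatedly in these shares, since several probe sets of Cwc22 and of Cdc5l hold identical values. With the brightest probe set per gene, 16 of 120 genes had an unadjusted p under 0.05 in limma, beside 1873 of 10547 over all genes. The gene that fell was Sf3b1, the branch-site subunit of the U2 snRNP, which read 8.44, 8.55 and 8.40 in saline and 8.22, 8.16 and 8.19 in 2MT and fell by 0.27 ± 0.06 (SE, limma adjusted p = 0.0292). It lost its call with any array but saline 3 left out (0.0589 to 0.114), with no dim filter (adjusted p = 0.0524), with no variance trend (0.101) and with a block for the replicate number (0.0515). Without saline 3, a total of 3 of the 156 probe sets fell, beside 262 of all 14480 bright probe sets.

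Of 34 probe sets of U1 and U2 snRNP genes, 9 did not overlap between groups, 8 of them below (26.5%, and 23.5% below, beside 21.3% and 9.74% of all bright probe sets), and their median was -0.04. At an unadjusted p under 0.05 there were 3 of the 34, 8.82% beside 17.2%. In the other lists 0 passed in limma. Of 44 probe sets for the tri-snRNP and the catalytic steps 1 had an unadjusted p under 0.05 (2.27%), with a median of -0.03. The 44 read only 27 genes, and repeated probe sets of Cwc22 and Cdc5l weigh on that share. The helicase gene Dhx15 differed by -0.20 and Srrm2, a scaffold rich in serine and arginine, by 0.14. Of 50 probe sets for other splicing regulators 5 had an unadjusted p under 0.05 (10.0%), with a median of -0.02. Tra2a, a relative of the SR proteins, differed by -0.41 ± 0.13 (SE, limma adjusted p = 0.138) on probe set 10544638, which was at 4.34 in 2MT, at the dim floor, and by -0.25 there with an offset of 16 added to the signal. Its brighter probe sets differed by -0.22 and, for the brightest, by -0.03 (adjusted p = 0.236 and 0.919), so the size depends on the probe set. Ybx1, an RNA- and DNA-binding protein, differed by 0.15 on 1 probe set and by 0.04 on the other, where the groups overlapped (adjusted p = 0.184 and 0.799).

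The list of kinases that phosphorylate SR proteins and of their nuclear importers, which also holds Nktr and Ppig, had 14 probe sets. Their median was -0.01, and 4 had an unadjusted p under 0.05, 28.6% beside 17.2% of all bright probe sets. Dyrk1b, a dual-specificity kinase, read 6.88, 6.94 and 7.01 in saline and 6.61, 6.76 and 6.71 in 2MT (limma adjusted p = 0.0896). Clk3, which phosphorylates SR proteins in the nucleus, lay the other way, at 6.09, 6.15 and 6.03 against 6.35, 6.26 and 6.32 (limma adjusted p = 0.144). Of 9 probe sets for the exon junction complex and nonsense-mediated decay, with a median of 0.00, 2 had an unadjusted p under 0.05 (22.2% beside 17.2%): Smg6, an endonuclease of that decay, at 0.22, and Smg1, its kinase, at -0.22.

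**Figure D3:**
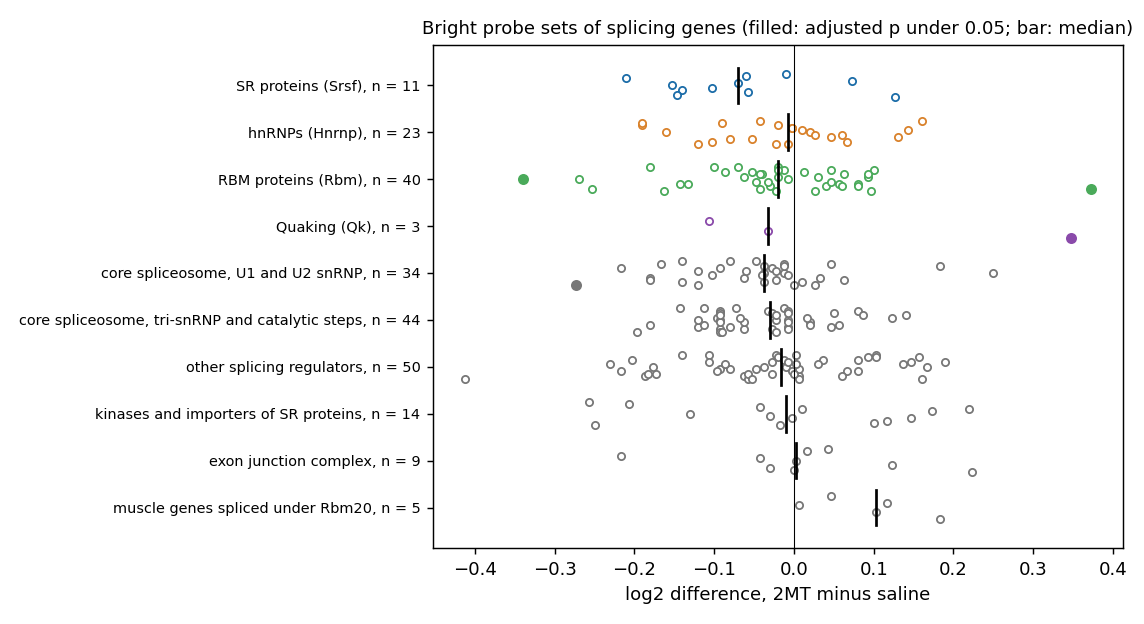
Log2 difference (2MT minus saline, horizontal axis) of each bright probe set, by family in colour and by list of other splicing genes in grey, with the median as a bar; filled points passed the adjusted p. Medians lie between -0.07 (Srsf) and 0.10 (the 5 muscle genes spliced under Rbm20), and the filled points are Qk, Rbm20, Rbm33 and Sf3b1.

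The signals matched heart muscle: the 10 cardiomyocyte markers had a mean signal of 11.87 to 12.00 on every array. These markers do not tell the left ventricle from the right. Marker means overlapped between groups for endothelial cells, fibroblasts, smooth muscle, macrophages, erythrocytes, lymphocytes, neutrophils, adipocytes, nerve and skeletal muscle, and 0 bright markers passed in limma. For 4 atrial genes the means did not overlap, at 5.45 to 6.22 in saline, with saline 2 highest, and 5.41 to 5.44 in 2MT; Myl7 and Sln of that list were dim, and its part in the members' values was not tested. Over the bright probe sets the correlation was 0.990 to 0.993 within a group and 0.986 to 0.991 between groups.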

How the data were processed

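Left ventricular RNA of 6 samples was read on 1 Affymetrix array each. The authors deposited a table with 1 value for each probe set on each array, read here as log2 signal because of its range (0.51 to 13.5; no header states the base). MAS5 stands in the submitters' processing notes without a version or a role; the normalization and genome build are not given in the sources used here, and no detection calls were used, so signal over background is unknown and precision is limited by how few arrays there are. Array medians were 4.32 to 4.37, and values were used as given.

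Of 28944 probe sets, 21789 had 1 gene symbol in the platform annotation, 1621 several and 5534 none; all 87 member probe sets had an Entrez ID in the RefSeq gene table, with 0 symbols changed. Each of 14480 bright probe sets was tested on its own with limma 3.58.1 in R 4.3.3 (lmFit, eBayes with a variance trend, two-sided, group as the only term), and p-values were adjusted over all of them. An exact permutation test of 3 against 3 cannot go below 0.1. The procedure was tested on simulated data of 14480 probe sets, with 50 changed at each of 4 sizes. Of 1.25-, 1.5-, 2- and 3-fold changes, 10%, 82%, 100% and 100% were found, with 7 false calls among 153 (4.58%). The simulated variances were drawn from limma's fitted prior. That choice was made after a first version with limma's posterior variances gave 22 false calls among 186 (11.8%). The first version found 32% and 96% of 1.25- and 1.5-fold changes.

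Members and lists were chosen with earlier results of these data known, so no test over a list was made. Named were the called members, the 3 largest rises and falls and the brightest probe set of each family, a fixed set of 15 genes, and in each other list the called genes or the 2 with the smallest p; the remaining members, including Rbm8a, Hnrnpc and Rbms2, were named after their values were seen, to account for every probe set. Promoters are RefSeq's, on GRCm38, and their motifs were also chosen after values were seen. Alternatives were 3 scalings, 2 dim filters, an offset of 16, 2 gene-level summaries, a block for the replicate number, weights for arrays, no variance trend, other thresholds, leaving out each array and, added after seeing the data, a robust variance prior. Same-numbered arrays of both groups did not deviate together (r from -0.222 to 0.046), so the numbers were not taken to pair samples. Figures came from Python 3.11.15 with matplotlib 3.10.9.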

Additional observations from a re-analysis of the deposited data

How the results depend on the processing

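The 3 scalings, the stricter dim filter, the offset, array weights, the robust variance prior (added after seeing the data; 486 bright probe sets passed) and the brightest probe set per gene kept the count of 3 called members, and the median difference of the members stayed between -0.0430 and -0.0000 with each array left out. With the replicate block 3 members and 393 bright probe sets passed, and 0 of the other splicing genes (19 at an unadjusted p under 0.05 in limma). With no variance trend 225 bright probe sets, 0 members (10 unadjusted) and 0 other splicing genes (12 unadjusted) passed in limma. With no dim filter 2 of 87 members passed in limma, both higher, beside 331 of all 28944 probe sets. Rbm33 did not pass there (limma adjusted p = 0.0529), and 0 other splicing genes passed (17 unadjusted). When probe sets of 1 gene were averaged, 1 of 61 members and 2 of 119 other genes passed, beside 484 of all 10455 genes. There 7 of 61 members did not overlap, and the share over all genes was not taken. With each array left out, between 176 and 468 bright probe sets, 1 and 3 members and 0 and 3 other splicing genes passed. The count passing over all bright probe sets was 176 without saline 1, 218 without saline 2, 180 without 2MT 2 and 202 without 2MT 3. In these settings 13 to 29 of 77 members did not overlap, and with fewer arrays groups separate more easily. The 29, without saline 3, stand beside 34.9% of all bright probe sets there, against 21.3% with all arrays. For the other settings the share over all bright probe sets was not taken. At an adjusted p of 0.1 the counts were 799 bright probe sets, 3 members and 3 other genes, and at 0.01 they were 135, 1 and 0 (16 unadjusted). Of 801 values of 41 named probe sets, 23 lost a call, those of Qk, Rbm20, Rbm33 and Sf3b1, and 1, Dyrk1b at the threshold of 0.1, gained one. For 10 named members near 0 that never passed, the sign changed in 21 values, so these have no settled direction: Hnrnpa2b1, Hnrnpu, Srsf2, both bright Srsf3 probe sets, Rbm24, Rbm38, Rbm39, Rbmx and the dimmest Qk probe set. The causes were not tested. No detection call or background was used, so differences of probe sets near the dim floor may be understated.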
